A study of Homo sapiens with 5 samples.

Results

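Non-promoter peaks of the ATF3 library from ATF3-KO cells were described. They were the peaks of that library on chromosomes 1 to 22 and X whose centre lay over 2 kb from the transcription start site (TSS) of every protein-coding transcript in hg19. Of the 2231 peaks of the library, 2098 lay on these chromosomes, and 811 of the 2098 were non-promoter peaks (38.7%). The other 1287 are called promoter peaks below. All 5 peak lists of the series held 123989 peaks. Position chose among the called peaks, so sequences and overlaps were not used in the choice. Calling itself used the tags of the ATF3-KO library. Sites too low to be called there are thus missing from every comparison of heights below.

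ChIP-seq was performed in HCT116, a human colon cancer cell line, with a single library for each condition. ATF3-KO cells, a single knockout line, carry a targeted deletion in both ATF3 alleles, made by homologous recombination with an adeno-associated virus, and were given DMSO, the solvent of the drug, before precipitation with an ATF3 antibody. ATF3-Ctrl is the ATF3 library of ATF3-WT cells given DMSO, and ATF3-CPT is that of ATF3-WT cells given 1.5 μM camptothecin (CPT), a topoisomerase I inhibitor, for 4 h. p53-CPT is the p53 library of cells with wild-type p53 under the same CPT treatment, and p53-KO is the p53 library of p53-knockout cells given DMSO, so this pair differs in genotype and in treatment. Chromatin of every group was cross-linked with DSG and then with formaldehyde. A peak list holds no expression values, so the loss of ATF3 in the knockout line could not be checked here, and differences between cultures or clones could not be assessed.

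ATF3 is a stress-induced transcription factor of the basic leucine zipper family. Factors of this family bind as dimers to the ATF/CRE element TGACGTCA or to the AP-1 element TGACTCA and its complement TGAGTCA. A library made with an antibody against a protein that the cells lack is used as a background library, because what it recovers does not depend on that protein. Human centromeres are built from alpha satellite, a tandem repeat of short units, and the protein CENP-B binds a short box in part of these units. Satellites II and III, built from the unit GGAAT, lie beside centromeres, telomeres end in the repeat TTAGGG, and the nuclear genome carries inserted copies of mitochondrial DNA. Copies of such sequences are often missing from hg19 or merged in it.

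The sequences below, from the plus strand of hg19 under each peak, show the kinds of DNA on which the non-promoter peaks lay. The first is the highest-scoring peak, which held no CENP-B box, and the second is the next by score, in which capitals mark a CENP-B box (TTCG, 4 bases, A, 2 bases, CGGG).
chr1:121485094-121485292: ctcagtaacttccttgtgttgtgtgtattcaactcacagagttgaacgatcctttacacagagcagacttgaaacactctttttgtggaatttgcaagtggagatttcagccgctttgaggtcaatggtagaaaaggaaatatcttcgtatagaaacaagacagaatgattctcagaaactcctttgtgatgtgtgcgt
chr7:61969266-61969464: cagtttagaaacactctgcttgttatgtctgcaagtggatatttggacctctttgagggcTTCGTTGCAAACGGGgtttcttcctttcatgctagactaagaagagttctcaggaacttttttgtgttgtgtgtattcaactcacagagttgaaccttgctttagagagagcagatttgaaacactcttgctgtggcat

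The next pair shows the highest-scoring GGAAT peak, with the unit in capitals at 11 places among diverged units, and the highest-scoring peak found in no other list, with the unit at 24 places.
chr10:42599684-42599882: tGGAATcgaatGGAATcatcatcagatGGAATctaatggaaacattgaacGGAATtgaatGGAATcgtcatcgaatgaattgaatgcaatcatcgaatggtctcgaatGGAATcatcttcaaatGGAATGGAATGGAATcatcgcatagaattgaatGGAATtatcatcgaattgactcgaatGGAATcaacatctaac
chr4:49634868-49635066: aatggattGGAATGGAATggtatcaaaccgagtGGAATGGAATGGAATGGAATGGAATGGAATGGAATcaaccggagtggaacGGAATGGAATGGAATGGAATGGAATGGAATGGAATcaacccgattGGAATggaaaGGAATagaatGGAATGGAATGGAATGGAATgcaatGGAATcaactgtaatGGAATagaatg

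The next sequence is a nuclear copy of mitochondrial DNA on chromosome 11, and its capitals mark the 121 bases covered by words of 24 bases that also occur in the mitochondrial genome.
chr11:10530979-10531177: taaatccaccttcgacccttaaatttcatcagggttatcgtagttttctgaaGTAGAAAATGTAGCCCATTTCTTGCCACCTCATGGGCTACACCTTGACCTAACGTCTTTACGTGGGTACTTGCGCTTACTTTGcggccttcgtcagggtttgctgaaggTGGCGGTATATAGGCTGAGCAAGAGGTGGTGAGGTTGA

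The last set shows the 3 highest-scoring peaks with an ATF/CRE core, then the ATF/CRE peak beside NEAT1, with TGACGTCA in capitals, and a peak in which TGACTCA (capitals) recurred 6 times at a spacing of 29 bases.
chr4:120375768-120375966: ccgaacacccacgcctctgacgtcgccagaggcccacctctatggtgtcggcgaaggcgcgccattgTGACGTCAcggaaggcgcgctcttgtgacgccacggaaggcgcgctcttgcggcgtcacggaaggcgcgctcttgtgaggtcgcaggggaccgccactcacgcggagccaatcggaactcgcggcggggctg
chr7:45808573-45808771: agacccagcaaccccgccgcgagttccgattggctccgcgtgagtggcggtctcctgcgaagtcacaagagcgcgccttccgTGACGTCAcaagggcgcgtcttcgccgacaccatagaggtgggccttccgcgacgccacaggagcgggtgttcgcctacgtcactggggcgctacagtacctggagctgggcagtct
chr7:66309896-66310094: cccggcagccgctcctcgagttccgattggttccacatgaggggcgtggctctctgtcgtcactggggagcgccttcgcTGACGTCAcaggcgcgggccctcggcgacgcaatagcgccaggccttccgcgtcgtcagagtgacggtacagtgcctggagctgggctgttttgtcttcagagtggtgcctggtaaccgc
chr11:65189568-65189766: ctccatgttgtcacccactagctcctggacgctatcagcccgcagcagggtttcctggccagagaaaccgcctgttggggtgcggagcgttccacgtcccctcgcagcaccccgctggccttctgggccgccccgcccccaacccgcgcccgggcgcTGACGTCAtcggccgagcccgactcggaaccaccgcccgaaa
chr1:236260479-236260677: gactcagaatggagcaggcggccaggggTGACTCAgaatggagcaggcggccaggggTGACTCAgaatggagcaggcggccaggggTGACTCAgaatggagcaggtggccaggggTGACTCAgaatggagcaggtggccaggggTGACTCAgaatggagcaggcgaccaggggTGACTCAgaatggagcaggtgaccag

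The deposited findPeaks score is a number of tags, called with a limit of 1 tag per position, and the normalized tag count is the number of tags per 10000000 tags of the library. Tags recovered from the normalized tag count were between 0.727 and 13.7 times the score, so the columns do not count the same tags, and how their windows differ is not given in the sources used here. The libraries held 12820520 tags (ATF3-KO), 12947516 (ATF3-Ctrl), 15457013 (ATF3-CPT), 3169743 (p53-CPT) and 1984941 (p53-KO). Their tag thresholds were 11, 9, 9, 7 and 6, so a site below them was not detectable and its absence from a list does not show that it held no tags. In ATF3-KO, 1 tag was worth a normalized tag count of 0.78, and 0.563% of all tags lay in peaks. Peaks were 198 bp wide in ATF3-KO and 126, 124, 318 and 310 bp wide in the other lists, in the same order. Intervals are 95% intervals, Wilson for shares and exact Poisson for tag counts, and cover counting error only.

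The non-promoter peaks were concentrated beside the centromeres. Of the 811 peaks, 218 lay within 1 Mb of the centromere gap of the assembly (26.9%, 23.9% to 30.04%), a zone that makes up 1.39% of the sequenced bases of these chromosomes. Among promoter ATF3-KO peaks the share was 0.622% (8 peaks). Non-promoter peaks of the other lists had shares of 2.42% (ATF3-Ctrl), 1.15% (ATF3-CPT), 2.19% (p53-CPT) and 2.25% (p53-KO). These lists held 24345, 54756, 8267 and 7237 non-promoter peaks, so a lower share there does not mean fewer such peaks. The same holds for the shares of chromosome ends and sequence classes below. Most of the 218 peaks lay closer still, with 183 within 500 kb of the gap and 124 within 100 kb. Of the 23 chromosomes, 21 held at least 1 such peak. The peaks beside the gaps were mainly of satellite-like sequence. Of them, 118 repeated themselves at the length of 1 or 2 alpha satellite units (an alpha-length period), 63 held the GGAAT repeat and 4 were single copy.

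The peaks were also frequent near chromosome ends. Within 1 Mb of an end lay 96 peaks (11.8%, 9.79% to 14.2%), against 1.43% of the sequenced bases, 5.52% of promoter ATF3-KO peaks and 1.80% to 1.94% of the non-promoter peaks of the other 4 lists. These 96 peaks were less uniform than those beside the centromeres. They comprised 44 peaks of other low-complexity sequence, 17 of the TTAGGG repeat, 17 of single-copy sequence, 14 of other repeated sequence, 3 of GGAAT and 1 mitochondrial match. No peak with the alpha-length period lay there. The remaining 497 peaks lay over 1 Mb from both a centromere gap and a chromosome end.

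**Figure D1:**
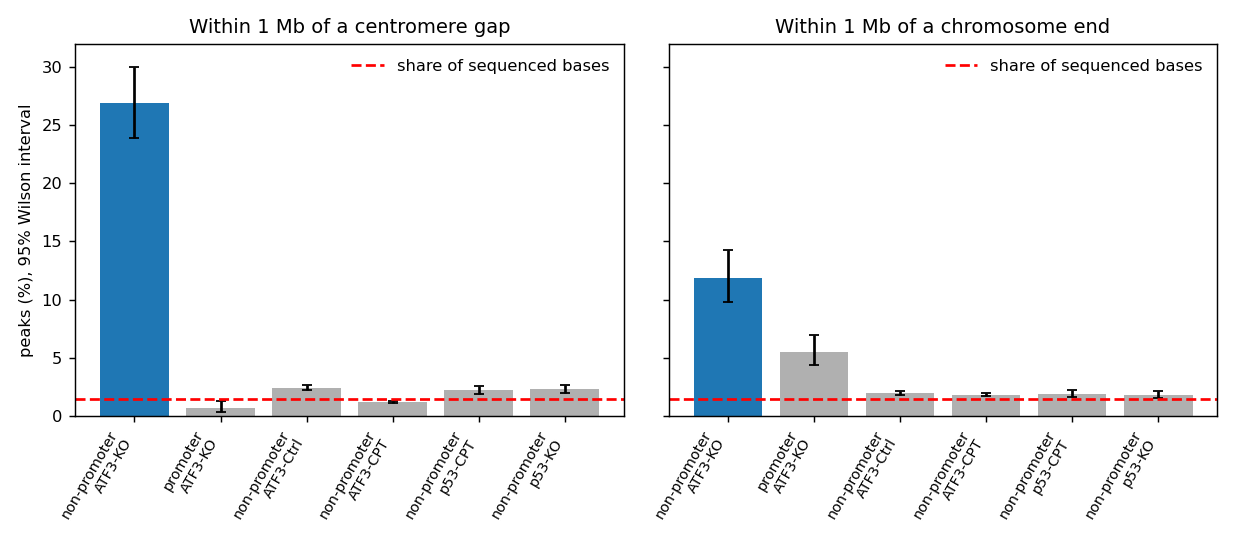
Share of peaks (%) within 1 Mb of a centromere gap and within 1 Mb of a chromosome end, for each list, with 95% Wilson intervals and the share of sequenced bases for comparison. Non-promoter ATF3-KO peaks have the highest share in both, at 26.9% and 11.8%. The lists differ in size, so the shares do not compare numbers of peaks.

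The peaks also lay close to each other. A run of at least 3 non-promoter peaks with neighbouring centres at most 10 kb apart was counted as a cluster, and 37 clusters held 176 peaks (21.7%). No promoter ATF3-KO peak was part of a run formed in the same way. Of the clusters, 24, with 129 peaks, lay within 1 Mb of a centromere gap, 3 lay within 1 Mb of an end, and 14 held at least 5 peaks. The largest cluster held 18 peaks at chr10:39076635-39151257, 3778 bp from the gap, and all 18 were GGAAT repeats with scores between 11 and 30. The second held 11 peaks at chr2:92269400-92315501. Of these, 10 had the alpha-length period and 6 a CENP-B box, and their scores lay between 31 and 123. Clusters of 8 peaks lay at chr11:51569605-51591142, where the median score was 161.5, and at chr10:42527931-42546213, where 5 peaks held a CENP-B box. The fifth held 7 peaks at chr16:33866338-33887781, over 1 Mb from the gap. Neighbouring peaks of a cluster share sequence, so they are not independent sites.

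By chromosome, the counts ran from 5 peaks on chromosome 13 and 6 on chromosome 15 to 74 on chromosome 10, with 69 on chromosome 16, 66 on chromosome 17 and 65 on each of chromosomes 1 and 2. In the annotation, 485 peaks (59.8%) lay between genes, 196 in an intron of a protein-coding gene, 66 in an intron of another gene type, 46 in an exon of another gene type, 16 in a coding exon and 2 in a UTR. The exclusion of promoters covered protein-coding transcripts only, and 172 peaks lay within 2 kb of the TSS of any other transcript, most often that of a lncRNA (92 peaks).

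Each peak was put in the first of 7 sequence classes that held for it. In the 811 peaks, 29 matched mitochondrial DNA (at least 10% of the 24-base words of the central 200 bp), 17 held TTAGGG and 85 held GGAAT at least 2 times in a row, and 152 repeated themselves at the length of 1 or 2 alpha satellite units. A further 210 were of other low complexity, 91 had a centre repeated elsewhere in hg19, and 227 were single copy. Single-copy sequence thus made up 27.99% of the peaks. It made up 96.0% of the promoter ATF3-KO peaks and 84.0%, 88.2%, 65.5% and 64.2% of the non-promoter peaks of ATF3-Ctrl, ATF3-CPT, p53-CPT and p53-KO. Independently of the classes, the centre occurred at least 2 times in hg19 in 489 peaks (60.3%), at least 10 times in 194 and at least 100 times in 33. Among promoter ATF3-KO peaks, a repeated centre was found in 3.34%.

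**Figure D2:**
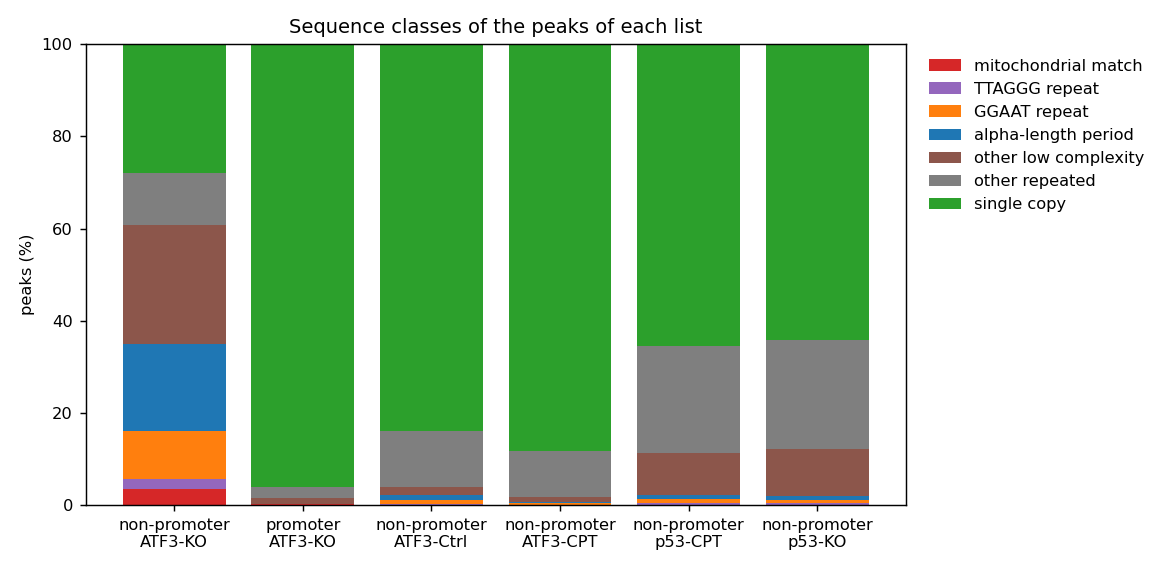
Sequence classes as a share (%) of the peaks of each list, stacked to 100%. In the non-promoter ATF3-KO peaks the 6 repeated or low-complexity classes fill most of the bar and single copy 27.99%, whereas single copy fills at least 64.2% of every other bar.

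Alpha satellite-like DNA gave most of the highest-scoring peaks. The 152 peaks with an alpha-length period had a median score of 27.5, against 15 over all 811 (quartiles 12 and 25) and 35 over the 29 mitochondrial matches, and provided 20 of the 29 peaks with a score of at least 100. A CENP-B box was found in 50 peaks (6.17%) and in 0.0128% of all 200 bp windows of the genome, and 49 of the 50 were in this class. The tallest peak, chr1:121485094-121485292, scored 441 and held a normalized tag count of 4720.6 (4602 to 4841). It lay 242 bp from the gap of chromosome 1, far from any gene. At the same place the normalized tag count was 4300.4 in ATF3-Ctrl, 2129.1 in ATF3-CPT, 5549.3 in p53-CPT and 5612.3 in p53-KO. It was thus tall in all 5 libraries. This peak alone held 14.0% of the tags of the non-promoter peaks.

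The next peak by score, chr7:61969266-61969464, is the one shown with its CENP-B box. Its normalized tag count was 861.1 in ATF3-KO, 682.8 in ATF3-Ctrl, 279.5 in ATF3-CPT, 1634.2 in p53-CPT and 1647.4 in p53-KO. In the third, chr19:27731985-27732183, 302 bp from its gap, the values were 980.5, 1140, 581.6, 1217.8 and 1042.9 in the same order. The order of the libraries at these peaks depended on the peak width, since both were highest in a p53 library as deposited and in ATF3-Ctrl when divided by width. A pair of chromosome 11 peaks of the same class, chr11:51586799-51586997 and chr11:51588845-51589043, had scores of 202 and 192. The last of the class among the 10 highest-scoring peaks was chr10:42529302-42529500, with a score of 186.

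The GGAAT repeat peaks resembled this class in level. The 85 peaks made up 10.5% of the non-promoter peaks, while 0.0975% of genome windows hold the repeat, and their median score was 23. The highest-scoring, chr10:42599684-42599882 (shown above), had a normalized tag count of 663.8 in ATF3-KO, 491.2 in ATF3-Ctrl, 280.1 in ATF3-CPT, 930.7 in p53-CPT and 942.1 in p53-KO. A nearby peak, chr10:42596959-42597157, had 645.8, 692.8, 334.5, 886.5 and 1063 in the same order. A further GGAAT peak, chr10:42380173-42380371, scored lower (105) but had a higher normalized tag count, 685.6 in ATF3-KO. It had 784.7 in ATF3-Ctrl, 383.6 in ATF3-CPT and no peak in the p53 lists. Another tall peak of chromosome 10, chr10:42385116-42385314, was of other low complexity. It had 606.8, 810.2 and 413.4 in the ATF3 libraries and no peak in the p53 lists. As deposited, the order of ATF3-KO and ATF3-Ctrl differed from peak to peak, and divided by width ATF3-KO was below ATF3-Ctrl at each of them.

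Telomere repeats formed a small class, and the 11 shared with p53-KO were far taller there. The 17 TTAGGG peaks made up 2.10% of the non-promoter peaks, against 0.00571% of genome windows, and 13 of them lay within 500 bp of a chromosome end. In the highest-scoring of them, chr12:133841602-133841800, the normalized tag count was 62.4 in ATF3-KO, 53.3 in ATF3-Ctrl, 45.9 in ATF3-CPT, 10401.5 in p53-CPT and 15421.1 in p53-KO. At the start of chromosome 5 (start 11134) it was 71.8, 53.3, 34.9, 14881.3 and 21386.0, and at the end of chromosome X (start 155260096) it was 56.9, 48.7, 37.5, 9177.4 and 13970.2. All 3 ATF3 libraries lay far below the p53 libraries at these sites, and the p53 antibody gave tall peaks also in the p53-knockout cells. Over the 16 peaks shared with ATF3-Ctrl, the normalized tag count ranged from 7.8 to 71.8 in ATF3-KO and from 8.5 to 53.3 in ATF3-Ctrl. Over the 11 shared with p53-KO, it ranged from 231.7 to 21386 in p53-KO. Against ATF3-CPT, 3 of 16 shared peaks were at least 2-fold higher in ATF3-KO, and 0 were when tag counts were divided by the peak width.

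Nuclear copies of mitochondrial DNA were the class in which ATF3-KO stood highest against the other libraries. Of the 29 peaks, 11 lay in or within 2 kb of a pseudogene named after a mitochondrial gene. The tallest, chr1:567477-567675, lay in an exon of MTCO1P12, a pseudogene of the cytochrome c oxidase gene MT-CO1, and 92.7% of its words occur in mitochondrial DNA. Its normalized tag count was 440.7 (405 to 479) in ATF3-KO, 178.4 in ATF3-Ctrl, 172.1 in ATF3-CPT and 233.5 in p53-CPT, with no peak in p53-KO. The peak shown from chromosome 11, chr11:10530979-10531177, had 149.8 in ATF3-KO, 27.0 in ATF3-Ctrl, 33.6 in ATF3-CPT, 37.9 in p53-CPT and 100.8 in p53-KO. On chromosome 13 (start 110076482), where all words match, the values were 117.0, 51.0, 58.2, 50.5 and 70.5. Each of these 3 peaks was higher in ATF3-KO than in every other library that had a peak there. Of the class as a whole, all 23 peaks shared with ATF3-Ctrl were higher in ATF3-KO as deposited. By 2-fold, 18 of the 23 were higher, against 1.81% of all 1716 ATF3-KO peaks shared with ATF3-Ctrl. Divided by the peak width, 21 of the 23 were higher, 4 of them by 2-fold. As deposited, all 8 shared with p53-CPT and all 6 shared with p53-KO were also higher in ATF3-KO. Peaks on the mitochondrial genome itself, which is not among the chromosomes used, numbered 0 in ATF3-KO and 2 in each other list. Whether the amount of mitochondrial DNA in each library had a part in these values was not tested.

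ATF/CRE cores were rare among the non-promoter peaks but more frequent than in the genome. An ATF/CRE core lay in the central 200 bp of 18 peaks (2.22%), against 0.0696% of genome windows, 8.70% of promoter ATF3-KO peaks, 0.834% of non-promoter ATF3-Ctrl peaks and 0.815% of non-promoter ATF3-CPT peaks. It lay within 50 bp of the centre in 15 of the 18. AP-1 cores lay in 48 peaks (5.92%). They were found in 3.05% of genome windows, in 41.3% of non-promoter ATF3-Ctrl peaks and in 49.3% of non-promoter ATF3-CPT peaks. Non-promoter ATF3-KO peaks thus held AP-1 cores less often than those of ATF3-Ctrl and ATF3-CPT. Of the ATF/CRE peaks 16 were single copy, as were 30 of the AP-1 peaks.

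All 18 ATF/CRE peaks were shared with ATF3-Ctrl and with ATF3-CPT, and all 18 were lower in ATF3-KO. Their normalized tag count had a median of 17.95 in ATF3-KO (8.6 to 46.8), 56 in ATF3-Ctrl (21.6 to 189.2) and 77.65 in ATF3-CPT (29.8 to 164.3). The highest, chr4:120375768-120375966, lay between genes, 64387 bp from the TSS of PDE5A (a cGMP phosphodiesterase) and 50 bp from that of a lncRNA. Its values were 46.8 (35.7 to 60.2) in ATF3-KO, 189.2 in ATF3-Ctrl, 113.9 in ATF3-CPT and 18.9 in p53-CPT, with no peak in p53-KO. At chr7:45808573-45808771, 13 bp from a lncRNA TSS, ATF3-KO had 42.9, ATF3-Ctrl 106.6 and ATF3-CPT 100.9. At chr7:66309896-66310094, also in an exon of a lncRNA, they had 32.8, 142.9 and 111.9. Neither was found in a p53 list. Beside NEAT1, a nuclear lncRNA of paraspeckles, the peak chr11:65189568-65189766 lay 578 bp from the TSS and had 9.4, 31.7 and 60.2. A lncRNA TSS lay within 100 bp of the centre in 10 of the 18. These peaks were partly alike in sequence, since 9 of the 18 formed 1 group linked by shared 16-base words, and those of chromosome 4 and of chromosome 7 (45808573) shared 55 such words, so they are not independent sites.

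AP-1 peaks were lower still against ATF3-CPT. At the 43 shared with that list, the median normalized tag count was 10.1 in ATF3-KO and 59.5 in ATF3-CPT, and at the 42 shared with ATF3-Ctrl it was 10.1 against 30.9. At the tandem AP-1 repeat shown above, chr1:236260479-236260677, 32169 bp from the TSS of NID1, a basement membrane protein, the values were 26.5 in ATF3-KO, 125.1 in ATF3-Ctrl, 265.3 in ATF3-CPT, 41.0 in p53-CPT and 40.3 in p53-KO. Among the 5 highest-scoring peaks with a core was also chr16:88281167-88281365, with an AP-1 core in low-complexity sequence and values of 33.5, 41.7 and 73.8 in the ATF3 libraries.

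The 227 single-copy peaks were low. Their median score was 12, one above the threshold, and their highest normalized tag count was 46.8. They were unevenly spread over the chromosome arms, with 37 on 17q (16.3%), where 6.76% of promoter ATF3-KO peaks and 4.43% of non-promoter ATF3-Ctrl peaks lay. On 16q lay 15 (6.61%, against 4.04% and 1.81%). On 8q lay 18 (7.93%, against 3.65% and 4.70%) and on 10q 16 (7.05%, against 4.43% and 4.55%). Why the arms differed was not tested. The single-copy peaks had a median GC content of 60.5% in the central 200 bp. This lay between the 68% of promoter ATF3-KO peaks and the 37.5% of the peaks with an alpha-length period.

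Clonal Fold Change, the ratio by which HOMER measures how far the tags of a peak pile up on the same positions, was higher outside promoters. The authors removed peaks above 2.0, so only lower values could be seen. This filter took out 31 putative peaks in ATF3-KO, 24 in ATF3-Ctrl, 14 in ATF3-CPT, 509 in p53-CPT and 582 in p53-KO. A site without a peak in a p53 list can thus have been removed by this filter. The median was 0.96 (quartiles 0.89 and 1.08) in non-promoter and 0.91 in promoter ATF3-KO peaks. It was 0.89 in the non-promoter peaks of both ATF3-WT libraries, 1.09 in p53-CPT and 1.13 in p53-KO. A value of at least 1.2 was found in 151 peaks (18.6%), in 0.389% of promoter ATF3-KO peaks and in 0.793% and 0.278% of the non-promoter peaks of ATF3-Ctrl and ATF3-CPT, but in 37.2% and 41.0% of those of p53-CPT and p53-KO, the libraries with the fewest tags. The part of depth in this was not tested. The excess lay in 3 classes, with medians of 1.22 for mitochondrial matches, 1.21 for the alpha-length period and 1.13 for GGAAT. Medians of the other 4 classes were between 0.90 and 0.91. Within 1 Mb of a centromere gap the median was 1.145, against 0.91 for the other 593 peaks and 0.90 for those near the ends.

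Both extremes of this ratio were satellite peaks. The highest value was 1.96, in a peak with an alpha-length period, followed by 1.94 at chr10:42380173-42380371 and 1.94 at chr11:48867708-48867906. The lowest were 0.45, 0.58 and 0.72, in the 3 highest-scoring alpha-length peaks (chromosomes 1, 7 and 19). The tallest peak, with the lowest Clonal Fold Change, had the highest ratio of recovered tags to score, at 13.7. A low Clonal Fold Change there thus did not go with few tags per score. The median ratio of recovered tags to score was 1.46 for the alpha-length period, 1.43 for mitochondrial matches, 1.2 for GGAAT and 1.0 for the other classes.

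Focus ratio, a fraction that HOMER gives for each peak and that the sources used here do not define, was slightly lower outside promoters. Its median was 0.75 (quartiles 0.667 and 0.846) in non-promoter and 0.765 in promoter ATF3-KO peaks, 0.812 and 0.818 in the non-promoter peaks of ATF3-Ctrl and ATF3-CPT, and 0.907 and 0.917 in those of p53-CPT and p53-KO. Lists with other peak widths are not strictly comparable in this value. Between classes the median ran from 0.667 for other low complexity and 0.733 for other repeated sequence to 0.809 for GGAAT, 0.82 for the alpha-length period and 0.889 for mitochondrial matches, with 0.765 for single copy. The 3 highest focus ratios were 0.989 at chr7:61988552-61988750, 0.983 at chr14:19038331-19038529 and 0.981 at chr2:92276605-92276803, all in peaks with the alpha-length period. The 3 lowest were in low-complexity peaks near chromosome ends, with 0.448 at chr17:80629227-80629425 in an intron of RAB40B, 0.462 at chr16:90061710-90061908 and 0.478 at chr22:51082029-51082227.

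**Figure D3:**
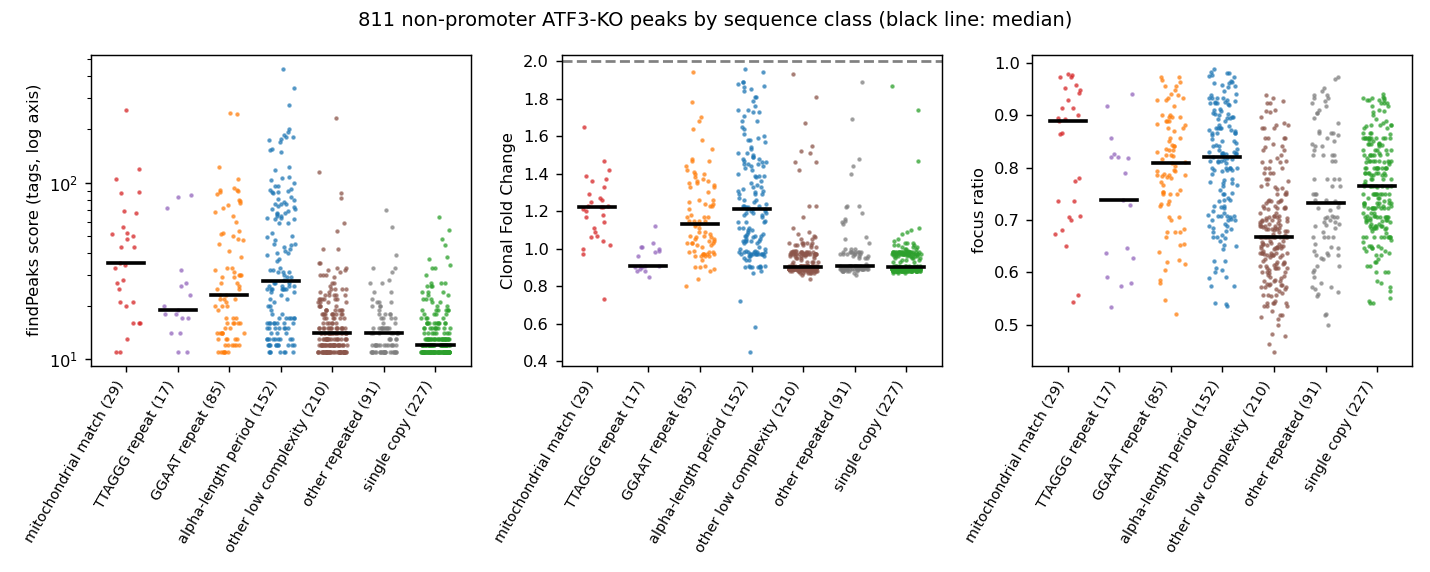
findPeaks score (log scale), Clonal Fold Change and focus ratio of the non-promoter ATF3-KO peaks in each sequence class, 1 point per peak, with the class median as a black line and the authors' limit of 2.0 for Clonal Fold Change as a dashed line. Mitochondrial, GGAAT and alpha-length peaks have higher medians of all 3 values than single-copy peaks.

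Most non-promoter peaks recurred in the lists of ATF3-WT cells and fewer in those of p53. An ATF3-Ctrl peak overlapped 580 of the 811 by at least 1 bp (71.5%), an ATF3-CPT peak 547 (67.4%), a p53-CPT peak 206 (25.4%) and a p53-KO peak 165 (20.3%). As a share of the other lists, the peaks that overlapped them were 1.73% of ATF3-Ctrl, 0.784% of ATF3-CPT, 2.29% of p53-CPT and 2.14% of p53-KO. The promoter ATF3-KO peaks had overlaps of 88.3%, 92.5%, 2.87% and 0.932% with the 4 lists. Of the non-promoter peaks, 99 (12.2%) overlapped all 4 lists, 314 (38.7%) the 2 ATF3 lists only, 28 a p53 list only, and 144 (17.8%) no other list, against 5.05% of promoter peaks. Overlap rose with height, from 125 of the 280 peaks with scores of 11 or 12 in ATF3-Ctrl to 188 of the 194 with scores over 25.

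The overlap with the p53 lists lay mostly on repeats. With p53-KO it was 11 of 17 for TTAGGG, 33 of 85 for GGAAT, 50 of 152 for the alpha-length period, 6 of 29 for mitochondrial matches and 44 of 210 for other low complexity, but 3 of 227 for single copy. The single-copy peaks overlapped ATF3-Ctrl in 65.2% and ATF3-CPT in 75.3%. GGAAT and alpha-length peaks overlapped ATF3-Ctrl more often, in 77 of 85 and 137 of 152, and ATF3-CPT in 56 and 123. Of the 99 peaks in all 4 lists, 2 were single copy, and their median score was 42, with a range of 11 to 441.

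**Figure D4:**
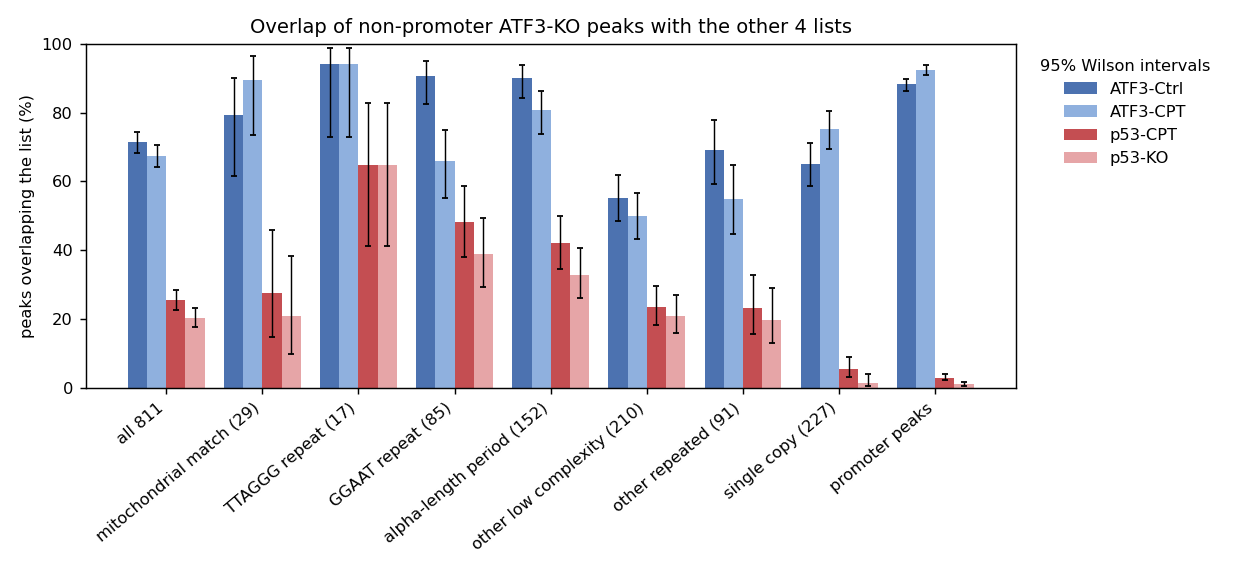
Share (%) of the non-promoter ATF3-KO peaks of each sequence class that overlapped each of the other 4 lists by at least 1 bp. Every class overlaps the ATF3 lists more than the p53 lists, and single copy has the lowest share in p53-KO.

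The 144 peaks found in no other list were low, with a median score of 12 and a highest score of 30. They comprised 58 of other low complexity, 49 of single copy, 19 of other repeated sequence, 9 with the alpha-length period, 6 GGAAT, 2 mitochondrial matches and 1 TTAGGG. The tallest was the GGAAT peak shown above, chr4:49634868-49635066, with a normalized tag count of 38.2 (28.3 to 50.5). It was followed by chr9:68423961-68424159 (single copy, 18.7), chr21:10702103-10702301 (alpha-length, 15.6), chr9:139474964-139475162 (low complexity, 13.3, between genes and 34563 bp from the TSS of NOTCH1, a signalling receptor) and chr12:34849363-34849561 (alpha-length, 15.6).

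The heights of shared peaks were compared with ATF3-Ctrl by the difference in log2 normalized tag count, and a peak was counted as higher or lower from 2-fold on. Over all 1716 ATF3-KO peaks shared with ATF3-Ctrl, 1.81% were higher in ATF3-KO and 34.4% lower. Of the 580 non-promoter peaks 26 were higher (4.48%) and 105 lower (18.1%), with no test possible between single libraries. The median difference was -0.25 on the log2 scale, against -0.61 over all shared peaks and -0.86 in promoter peaks. The classes differed widely. Mitochondrial matches had a median of 1.30, with 18 of 23 higher and 0 lower. Medians as deposited were -0.17 for the alpha-length period, -0.15 for GGAAT, 0.10 for TTAGGG and -0.07 for other low complexity. Of the alpha-length peaks 0 were higher and 3 lower of 137, of GGAAT 2 and 0 of 77, of TTAGGG 0 and 0 of 16, and of other low complexity 5 and 13 of 116. Other repeated sequence had 0 higher and 16 lower of 63 (25.4%). Single-copy peaks had a median of -0.99, with 1 higher and 73 lower of 148. Among ATF/CRE peaks the median was -1.60 and 17 of 18 were lower, and among AP-1 peaks it was -1.39 and 29 of 42 were lower.

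These values depended on the peak width, which was larger in ATF3-KO. Per bp, the median of the 580 peaks was -0.91 rather than -0.25. This shift is the same for every peak, so the order of the classes did not change. Medians per bp were 0.65 for mitochondrial matches, -0.82 for the alpha-length period, -0.81 for GGAAT, -0.55 for TTAGGG, -0.72 for other low complexity and -1.64 for single copy. Lower by 2-fold per bp were 43 of 137 alpha-length, 26 of 77 GGAAT, 2 of 16 TTAGGG, 43 of 116 low-complexity and 110 of 148 single-copy peaks. Other repeated sequence had a median of -1.01 per bp, with 33 of 63 lower by 2-fold. Per bp, 21 of 23 mitochondrial matches were still higher in ATF3-KO, 4 of them by 2-fold, and all 18 ATF/CRE peaks were lower by 2-fold.

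**Figure D5:**
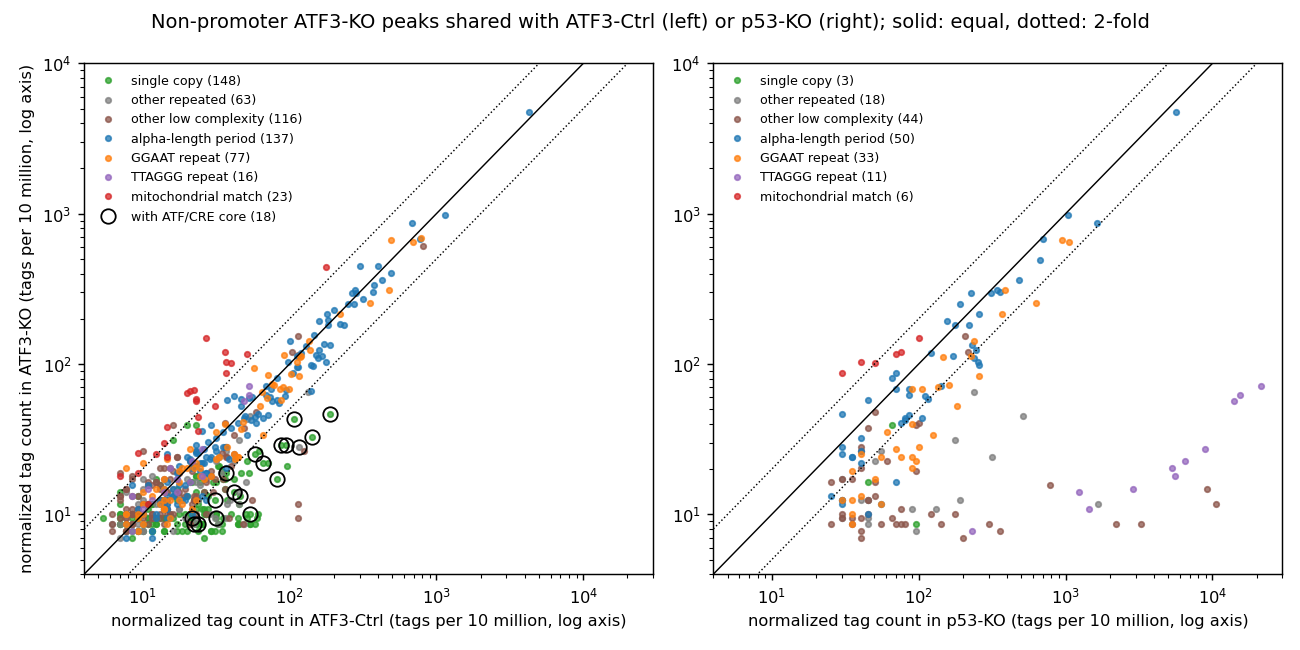
Normalized tag count (tags per 10000000, log scales) of the shared non-promoter peaks in ATF3-KO against ATF3-Ctrl and against p53-KO, 1 point per peak, coloured by class, with ATF/CRE peaks circled and the 2-fold limits dotted. Values are for peaks of the deposited widths, which are larger in ATF3-KO than in ATF3-Ctrl. Most satellite peaks lie between the dotted lines against ATF3-Ctrl, mitochondrial matches lie on the ATF3-KO side of it, and TTAGGG peaks lie far on the p53-KO side.

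Against ATF3-CPT, 6.33% of the 1737 shared ATF3-KO peaks were higher in ATF3-KO and 44.6% lower. Of the non-promoter peaks 107 of 547 were higher (19.6%) and 133 lower (24.3%), with a median difference of 0.37, against -1.07 in promoter peaks. Of the 107 higher peaks 2 were single copy. The alpha-length period had 40 of 123 higher and 0 lower (median 0.83), GGAAT 19 of 56 higher and 0 lower (0.84), and mitochondrial matches 20 of 26 higher and 0 lower (1.23). Other low complexity had 19 of 105 higher and 14 lower, and other repeated sequence 4 of 50 higher and 16 lower. Most of these higher calls rested on the peak width. Per bp, 0 of 123 alpha-length, 2 of 56 GGAAT, 3 of 26 mitochondrial and 1 of 105 low-complexity peaks were higher by 2-fold (medians 0.16, 0.16, 0.56 and -0.33), and the median of all 547 was -0.31. Single-copy peaks had 2 higher and 103 lower (60.2% of those shared, median -1.23), ATF/CRE peaks 18 of 18 lower (-1.78) and AP-1 peaks 38 of 43 lower (-2.34). The comparisons with ATF3-Ctrl and with ATF3-CPT share the ATF3-KO values.

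Against p53-KO, 1.69% of the 177 shared ATF3-KO peaks were higher in ATF3-KO and 59.3% lower. Nearly all of these peaks were non-promoter, 165 of 177, so their counts of 3 higher and 95 lower cannot be set apart from it. The 3 higher peaks were mitochondrial matches, of 6 shared. All 11 shared TTAGGG peaks were lower, with a median of -7.95 (-7.30 per bp). The alpha-length period had a median of -0.50 as deposited and 0.15 per bp, so its direction turned with the width. Antibody, cell line and depth all differ between these libraries and cannot be told apart. Across shared non-promoter peaks, Spearman's rho between the normalized tag counts of ATF3-KO and of the other library was 0.669 for ATF3-Ctrl (580 peaks), 0.396 for ATF3-CPT (547), 0.461 for p53-CPT (206) and 0.405 for p53-KO (165). These peaks share sequence and copies, and the values are a description.

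At the 2 kb limit, the members just outside were chr17:3791861-3792059 in an intron of CAMKK1 (2077 bp from the nearest protein-coding TSS, with an ATF/CRE core and a score of 11), chr1:31904593-31904791 in an intron of SERINC2 (2078 bp, score 22) and chr16:81682591-81682789 in an intron of CMIP (2106 bp, score 11). Just inside lay peaks at HID1 (1967 bp, score 12), LCN12 (1905 bp, score 11) and GSE1 (1887 bp, score 11).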

How the data were processed

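ChIP-seq peak lists of 5 HCT116 libraries, grouped by GEO's labels, were used as deposited. Per the file headers, the labels and the methods, alignment by the authors used BWA (version 0.6.1) and hg19, and peaks were called library by library with findPeaks of HOMER (version 4.1) and no input control. Thresholds were 0.001 for the false discovery rate, 4 for the fold over the local 10000 bp and 1e-04 for the local p-value. The deposited values were a normalized tag count (a signal per 10000000 tags), a findPeaks score, a focus ratio (a fraction), a Clonal Fold Change (a ratio), and a local fold and its p-value, neither used for a comparison. In ATF3-KO, 1278 of 3540 putative peaks had been removed by the local filter.

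From these lists, distances to TSS (GENCODE release 44 mapped to GRCh37), to centromere gaps (runs of at least 3000000 unsequenced bases) and to chromosome ends were computed from peak centres with Python 3.11.15, numpy 2.4.6, pandas 2.3.3, scipy 1.17.1, pysam 0.24.0 and numba 0.67.0, and figures were drawn with matplotlib 3.10.9. Repeats were found from the reference sequence itself. The number of exact copies of 24-base words was counted in the whole genome, self-similarity was measured in 2000 bp, with a best match at the length of 1 or 2 alpha satellite units and at least 40% identity for the alpha-length class, and complexity was the share of distinct 6-base words in 300 bp, called low under 0.5. No repeat annotation was used. Motifs were exact matches on both strands of the central 200 bp. The ATF/CRE word contains neither AP-1 word.

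Named peaks were the 10 highest-scoring, the 5 highest of those in no list, in all 4 lists and with a core, the 5 clusters with most peaks, the 3 at either extreme of Clonal Fold Change and focus ratio, and the 3 on each side of the 2 kb limit. Some items are not reported here. The peaks and lists were chosen with earlier results of these data known. The sequence classes and their thresholds, and the further ATF/CRE, TTAGGG and mitochondrial peaks given with values, were chosen after the data had been seen. With 1 library per condition no test was possible. For shared sites the highest overlapping peak of the other list was used. The scripts were tested on simulated data, and 12 of 12 checks passed. Alternatives covered the TSS set and distance, score, overlap, zone, cluster, copy, period, complexity, core window and scaling.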

Additional observations from a re-analysis of the deposited data

How the results depend on the processing

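No paired analysis was possible because each condition had 1 library. Of 153 alternative values for 20 results, 76 stayed within the limit set for them (the interval of the reported value, or 1.5-fold for the number of peaks), 74 moved beyond it and 3 changed sign. Restriction to single-copy peaks, leaving out peaks near centromere gaps, and tag counts per bp were added with the data already seen. The causes were not tested beyond the construction of each alternative.

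Requiring a score of at least 20 changed most values. Overlap rose to 95.96% (ATF3-Ctrl), 95.22% (ATF3-CPT), 47.06% (p53-CPT), 39.34% (p53-KO) and 30.88% (all 4 lists), and the share in no list was 1.103%. The centromere share was 48.16%, that of chromosome ends 7.721%, of clusters 38.6% and of repeated centres 77.21%. Medians were 33 (score), 1.08 (Clonal Fold Change) and 0.77 (focus ratio), and log2 differences -0.142 (ATF3-Ctrl), 0.7829 (ATF3-CPT) and -0.8121 (p53-KO).

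Overlap of at least 50% of the peak gave 56.84% (ATF3-Ctrl), 52.65% (ATF3-CPT), 8.631% (all 4) and 27.74% (none). Centres within 1000 bp gave 79.65%, 77.56%, 30.7% (p53-CPT), 25.03% (p53-KO), 16.89% (all 4) and 10.97% (none).

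With the TSS of each protein-coding gene instead of each transcript, 942 peaks were non-promoter. Overlap with ATF3-CPT was 70.81%, and shares were 23.25% (centromere), 18.68% (clusters), 53.82% (repeated centre) and 32.27% (low complexity), with a log2 difference to ATF3-CPT of 0.1128. With TSS of all gene types, 639 were left. Overlap with p53-KO was 23.32%, and the shares were 33.65%, 25.51%, 64.63% and 41.78%, with a log2 difference of 0.504.

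Zones of 500 kb and 5 Mb gave 22.56% and 38.72% for centromere gaps and 7.028% and 28.98% for chromosome ends. Cluster distances of 5 kb and 50 kb gave 12.45% and 31.94%. A period of 1 alpha satellite unit at 60% identity or more, a stricter measure than the alpha-length class, held for 4.932% of the peaks, and at 75% identity for 0.3699%. A minimum of 10 copies gave 23.92%, a complexity limit of 0.7 42.42%, and a core window of 400 bp 11.84%.

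Single-copy peaks alone gave overlaps of 65.2% (ATF3-Ctrl), 75.33% (ATF3-CPT), 5.286% (p53-CPT), 1.322% (p53-KO), 0.8811% (all 4) and 21.59% (none), cores in 20.26%, medians of 12 (score), 0.9 (Clonal Fold Change) and 0.765 (focus ratio), and log2 differences of -0.9858 (ATF3-Ctrl) and -1.234 (ATF3-CPT). Without the 218 peaks near gaps, the overlaps were 66.27% (ATF3-Ctrl), 21.08% (p53-CPT), 15.18% (p53-KO), 8.938% (all 4) and 20.91% (none), cores 10.96%, medians 13, 0.91 and 0.727, and log2 differences -0.3742 (ATF3-Ctrl), -0.1736 (ATF3-CPT) and -1.858 (p53-KO). Scores per 10000000 tags gave -0.1087 (ATF3-Ctrl), 0.3859 (ATF3-CPT) and -1.673 (p53-KO). Tag counts per bp gave -0.9058 (ATF3-Ctrl), -0.3062 (ATF3-CPT) and -0.6434 (p53-KO). The sign of the difference to ATF3-CPT thus depended on the peaks and on the width. Sites under the tag thresholds, the smaller p53 libraries, and the removal of more peaks by the Clonal Fold Change filter in the p53 lists limit what the overlaps can show.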
